A study of Homo sapiens with 4 samples.

Results

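Cholesterol synthesis, uptake and export were followed through 36 genes listed by their place in the pathway, taken as every probe set that the array annotation gives to one of these symbols. A probe set is a group of short array probes for one transcript. The list held 8 genes of the early mevalonate steps, 12 of the late sterol steps, 4 of uptake and transport, 6 of sterol sensing, 5 of export driven by the liver X receptors (LXR) and 1 of esterification. Of the 36 genes 33 were measured, by 77 of the 54613 probe sets, and they made up 33 of the 19775 genes tested. CYP51A1 was carried only by probe sets that the annotation shares with a second gene, and FDFT1 and NR1H2 matched no probe set with a single symbol. The expression of these 3 genes is therefore not analysed here.

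Animal cells build cholesterol from acetyl-CoA, first through mevalonate to the isoprenoid farnesyl diphosphate and then through squalene and lanosterol to the sterol itself. When sterol in the endoplasmic reticulum is low, SCAP escorts the transcription factor SREBP2 to the Golgi, where the site-1 and site-2 proteases release its active part, and the genes of synthesis and uptake are switched on. INSIG proteins hold SCAP back when sterol is plentiful. Surplus cholesterol is turned into oxysterols that activate the LXR receptors, which switch on transporters that carry cholesterol out of the cell.

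NUGC3 is an established line of human gastric cancer cells. Its PRMT6 wild-type cells (control, n = 2 arrays) were compared with PRMT6 knockout cells (n = 2 arrays), the latter made with a lentiviral CRISPR/Cas9 vector against PRMT6, puromycin and limiting dilution to clones. PRMT6 is an arginine methyltransferase of histone H3. The labels do not state how many clones the knockout arrays hold, whether control cells received a vector, or whether the replicates are separate cultures. The p-values therefore rest on the spread among these 4 arrays alone, which may be technical.

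The values are log2 RMA expression, and a difference of 1 is a doubling. PRMT6 read 7.66 on both control arrays and 6.87 and 6.91 on the knockout arrays (limma adjusted p = 0.0502), which checks the labels in part, because an edit need not remove a transcript. All 5 epithelial markers (EPCAM, CDH1, KRT8, KRT18 and KRT19) had control means above 10.5, while of 6 gastric markers CLDN18 and GKN1 lay at or below the median over all probe sets (array medians 4.73 to 4.77), and ANXA10 was called lower in the knockout. The gastric sum was 28.8 to 28.9 on control and 26.6 to 27.7 on knockout arrays, and its part in the results below was not tested. Markers of leukocytes, fibroblasts and endothelium had control means between 2.33 and 7.42. Of these 14 genes 0 were called, where 0.359% of all genes were called higher and 0.116% lower. In control mean 1 of 4 leukocyte, 3 of 5 fibroblast and 2 of 5 endothelial markers lay above the median level. PTPRC, CD14, LYZ, COL1A2, LUM, CDH5, KDR and TEK were at or below it. The summed level of the 4 measured leukocyte markers was 15.1 to 15.7 on control and 15.0 to 15.3 on knockout arrays. The sum of the 5 fibroblast markers was 22.2 to 24.6 and 22.2 to 22.6, and that of the 5 endothelial markers 20.0 to 21.5 and 20.1 to 20.5. The upper quartile of all probe sets was 6.62 on control replicate 2 and 6.77 to 6.79 on the other arrays.

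The promoters of the members that the results turn on are shown first, so that motifs of known sterol-related factors can be read in them. At many sterol-regulated genes SREBP2 is known to act together with NF-Y, which binds the letters CCAAT, or with Sp1, which binds GC-rich letters. The RefSeq table (GRCh38.p14) held promoters for 32 of the 36 members. The unmeasured genes CYP51A1 and NR1H2 were among them, and ACAT2, FDFT1, SQLE and ABCG1 were not. In the 250 bases before the start, 3 motifs were searched on both strands, the SREBP2 core TCACNCCAC, CCAAT and the Sp1 box GGGCGG. Capitals mark the first 2 of these or their reverse complement, which do not overlap in the sequences shown; the Sp1 box is not marked.

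HMGCS1 (chr5:43313413-43313662, minus strand): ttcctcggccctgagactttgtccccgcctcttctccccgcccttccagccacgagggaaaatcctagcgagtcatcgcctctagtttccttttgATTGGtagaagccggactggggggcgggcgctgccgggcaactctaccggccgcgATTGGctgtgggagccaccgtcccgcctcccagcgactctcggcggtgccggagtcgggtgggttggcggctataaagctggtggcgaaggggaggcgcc
MSMO1 (chr4:165327419-165327668, plus strand): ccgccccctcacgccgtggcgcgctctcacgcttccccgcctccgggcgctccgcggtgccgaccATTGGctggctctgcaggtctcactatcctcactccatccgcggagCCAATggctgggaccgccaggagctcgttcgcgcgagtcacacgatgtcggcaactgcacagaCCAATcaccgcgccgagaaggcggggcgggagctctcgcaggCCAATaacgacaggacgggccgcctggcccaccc
INSIG1 (chr7:155297628-155297877, plus strand): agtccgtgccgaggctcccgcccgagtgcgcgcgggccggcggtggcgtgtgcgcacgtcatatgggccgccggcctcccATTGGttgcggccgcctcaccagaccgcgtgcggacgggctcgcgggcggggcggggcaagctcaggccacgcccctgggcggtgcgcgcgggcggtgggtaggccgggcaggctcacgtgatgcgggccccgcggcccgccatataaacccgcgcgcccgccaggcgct
SREBF2 (chr22:41832855-41833104, plus strand): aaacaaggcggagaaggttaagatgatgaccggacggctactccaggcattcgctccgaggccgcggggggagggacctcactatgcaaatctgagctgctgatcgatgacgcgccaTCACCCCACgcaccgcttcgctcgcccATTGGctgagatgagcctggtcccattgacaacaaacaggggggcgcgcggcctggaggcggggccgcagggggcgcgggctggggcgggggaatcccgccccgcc
INSIG2 (chr2:118088221-118088470, plus strand): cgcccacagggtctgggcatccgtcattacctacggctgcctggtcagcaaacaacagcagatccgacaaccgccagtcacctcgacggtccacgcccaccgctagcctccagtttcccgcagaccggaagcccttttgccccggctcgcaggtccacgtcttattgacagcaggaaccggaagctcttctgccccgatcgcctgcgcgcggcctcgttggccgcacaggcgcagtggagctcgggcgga

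CCAAT was found in 19 of the 32 member promoters, against 33.0% of all 27305 promoters. By step it was in 12 of 17 synthesis promoters, 8 of which held it more than once, and in 7 of the 15 others. HMGCS1 had 2 copies and MSMO1 had 4, INSIG1 had 1, and INSIG2 had 0. The promoters shown were picked by the expression results, and other members differed from them. IDI1, at a log2 fold change of 0.64, had 0 copies, while MVK and NSDHL, each at 0.16, had 5. Whether copies go with the fold change was not tested. The SREBP2 core was found in 1 member promoter, that of SREBF2, where it begins 133 bases before the start and a CCAAT copy begins 106 bases before it, against 0.875% of all promoters. The Sp1 box was found in 25 of the 32 member promoters, INSIG2 among them, against 42.3% of all promoters. These matches only describe the letters in the window, and the series holds no measurement of binding there. A site with other letters, or outside the window, would have been missed, so a promoter without a match may still hold one.

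HMGCS1 and MSMO1, enzymes of the early and the late part of cholesterol synthesis, rose in the knockout, and the other synthesis genes had positive differences that did not pass. The 4 measured export genes did not pass either, with 2 positive and 2 negative. All 18 measured synthesis genes had positive log2 fold changes, from 0.13 to 1.10 with a median of 0.48, against a median of -0.01 over all 19775 genes. Over all 33 members 29 were positive, with a median of 0.29. Of these members 2 rose, HMGCS1 and MSMO1, where 0.359% of all genes were called higher. None of the 33 was called lower (limma, adjusted p), where 0.116% of all genes were. Without adjustment, 18 members were higher and 2 lower at p under 0.05, against 6.12% and 5.83% of all genes.

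**Figure D1:**
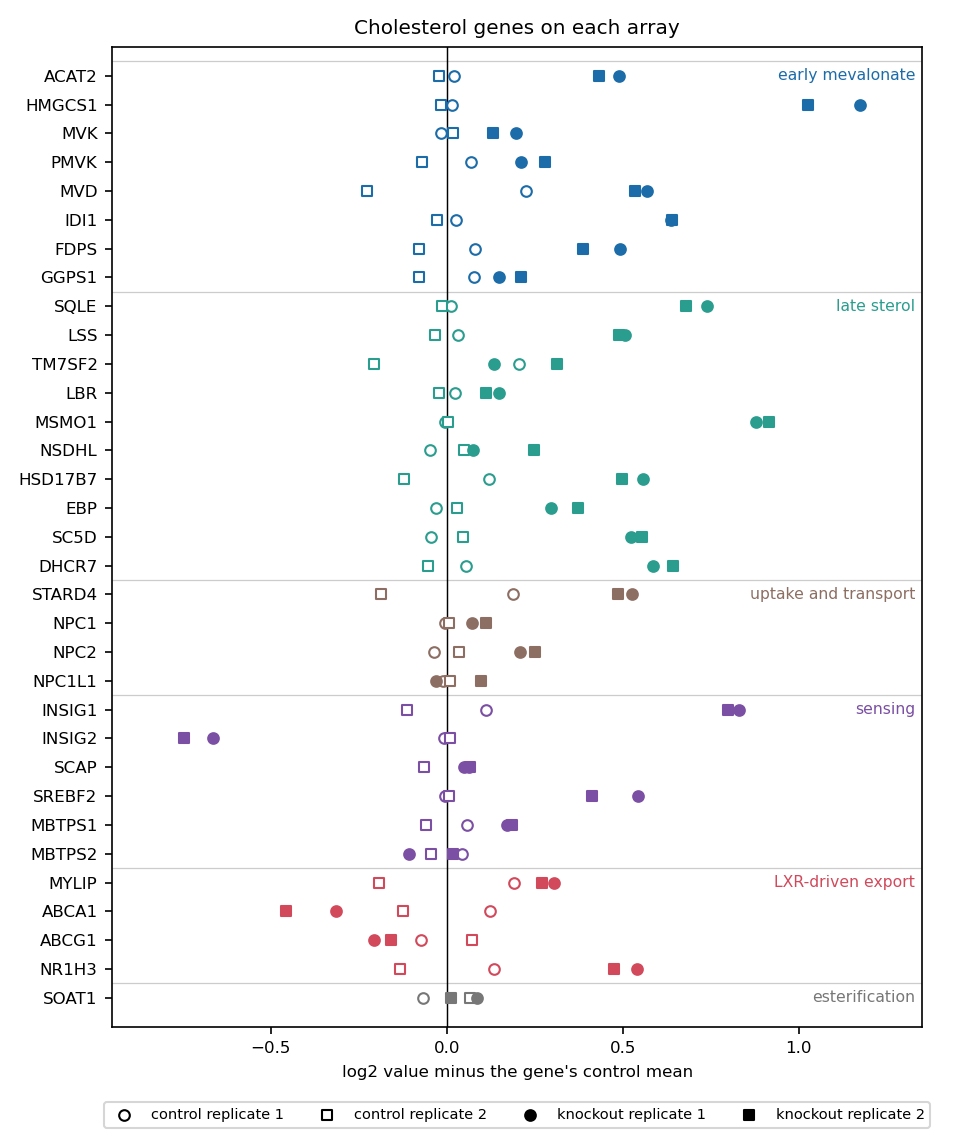
Log2 value of each measured member on each array minus the control mean of that gene, grouped by step; open symbols are control arrays, filled symbols knockout arrays, circles replicate 1 and squares replicate 2. In 17 of the 18 synthesis genes both filled symbols lie to the right of both open ones, and those of INSIG2, ABCA1 and ABCG1 lie to the left.

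The knockout arrays were both above the control arrays in 17 of the 18 synthesis genes and in 25 of the 33 members, against 21.7% of all genes and 28% of the 12759 genes above the median level. They were both below in 3 members, INSIG2, ABCA1 and ABCG1, against 21.6% and 21.3%. The members share arrays and were listed with earlier results known, so the counts describe the list. A change of level in each cell and a change in the share of cells that express a gene cannot be told apart in this bulk RNA.

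In the early mevalonate steps, HMGCS1 had the largest difference of all members. HMGCS1 makes HMG-CoA, the precursor of mevalonate. It read 9.58 and 9.55 on control replicates 1 and 2 and 10.73 and 10.59 on knockout replicates 1 and 2. The groups were separated by 1.01, and the log2 fold change of 1.10 (SE 0.087), or 2.14-fold, passed over all genes (adjusted p = 0.0349). Of all genes tested 99 had a larger one. Its second probe set gave 0.81, with 9.48 and 9.55 on the control arrays and 10.45 and 10.20 on the knockout arrays, again without overlap.

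IDI1, which isomerises isopentenyl diphosphate into its reactive partner, came next among the early genes. It read 9.72 and 9.67 on the control arrays and 10.33 on both knockout arrays, which is a difference of 0.64 on the log2 scale (SE 0.074, adjusted p = 0.0685). A second bright probe set gave 0.66, while the 2 dimmer ones gave -0.07 and -0.11, so the gene's mean over probe sets was 0.28. MVD, which decarboxylates mevalonate diphosphate, read 6.45 and 6.0 on control and 6.79 and 6.76 on knockout arrays. Its log2 fold change of 0.55 had a 95% interval of 0.11 to 1.00, the control arrays lay far apart, and over each control array alone it was 0.33 and 0.78.

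ACAT2 is the thiolase that joins acetyl-CoA units at the head of the pathway. It read 9.87 and 9.82 on control and 10.33 and 10.28 on knockout arrays, a log2 fold change of 0.46 (adjusted p = 0.125). FDPS, the farnesyl diphosphate synthase, read 10.06 and 9.90 against 10.47 and 10.36, a log2 fold change of 0.44 (adjusted p = 0.199). In both the groups were apart by at least 0.31. The 2 kinases of the pathway had smaller differences: MVK, which phosphorylates mevalonate, gave 0.16 (95% interval -0.04 to 0.37) and PMVK, which adds the next phosphate, gave 0.24 (0.01 to 0.48). MVK had 4 probe sets, at 0.52, 0.33, 0.16 and -0.19. GGPS1 turns farnesyl diphosphate toward protein prenylation instead of sterol. It gave 0.18 (-0.06 to 0.42), with 9.14 and 8.99 on control and 9.21 and 9.28 on knockout arrays, so the groups were apart by only 0.07.

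Among the late sterol genes MSMO1 rose. MSMO1 is the oxidase that begins the removal of the methyl groups at carbon 4 of the sterol. It read 9.63 and 9.64 on the control arrays and 10.51 and 10.55 on the knockout arrays. Replicates differed by far less than groups, and the log2 fold change was 0.90 (SE 0.072, adjusted p = 0.0365), or 1.86-fold. MSMO1 has 1 probe set, so no second measurement on these arrays stands beside it.

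SQLE, the squalene epoxidase and a rate-limiting enzyme, read 9.67 and 9.65 on control and 10.40 and 10.34 on knockout arrays. Its log2 fold change was 0.71 (SE 0.074, adjusted p = 0.0595). All 4 probe sets of SQLE were separated, with log2 fold changes from 0.71 to 0.90, the highest on a probe set below the median level. DHCR7, which reduces the last double bond to give cholesterol, read 9.19 and 9.09 against 9.73 and 9.78, at 0.61 (adjusted p = 0.0897), and its second probe set gave 0.75. LSS, the cyclase that forms lanosterol, read 8.06 and 7.99 against 8.53 and 8.51, at 0.50 (adjusted p = 0.112). Its other probe sets gave 0.44 and, on one below the median level, -0.07, and the mean over probe sets was 0.29.

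SC5D, which desaturates the sterol at carbon 5, gave 0.54 (8.86 and 8.95 on control, 9.43 and 9.46 on knockout arrays). Its second probe set, below the median level, gave 0.09 with overlapping groups, and the mean over both was 0.32. HSD17B7, which reduces the 3-keto group of the intermediate, gave 0.53 (8.73 and 8.49, then 9.16 and 9.10). EBP, the sterol isomerase, gave 0.33 on its brightest probe set, and 0.32, 0.14 and -0.07 on the others, with a mean of 0.18. On the probe set with the highest mean these 3 genes had non-overlapping groups and adjusted p of 0.105, 0.186 and 0.229.

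The late genes with the smallest differences were NSDHL, TM7SF2 and LBR. NSDHL, the dehydrogenase that follows MSMO1, gave 0.16 (95% interval -0.10 to 0.42), and its second probe set gave 0.17. TM7SF2 and LBR can both reduce the sterol at carbon 14, and LBR is also a receptor for lamin B in the nuclear envelope. LBR gave 0.13 (-0.07 to 0.33), from 10.63 and 10.58 to 10.75 and 10.72. TM7SF2 was the only synthesis gene with overlapping groups: it read 5.74 and 5.33 on control and 5.67 and 5.85 on knockout arrays, at 0.22 (-0.22 to 0.67). None of these intervals reached a 2-fold change.

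**Figure D2:**
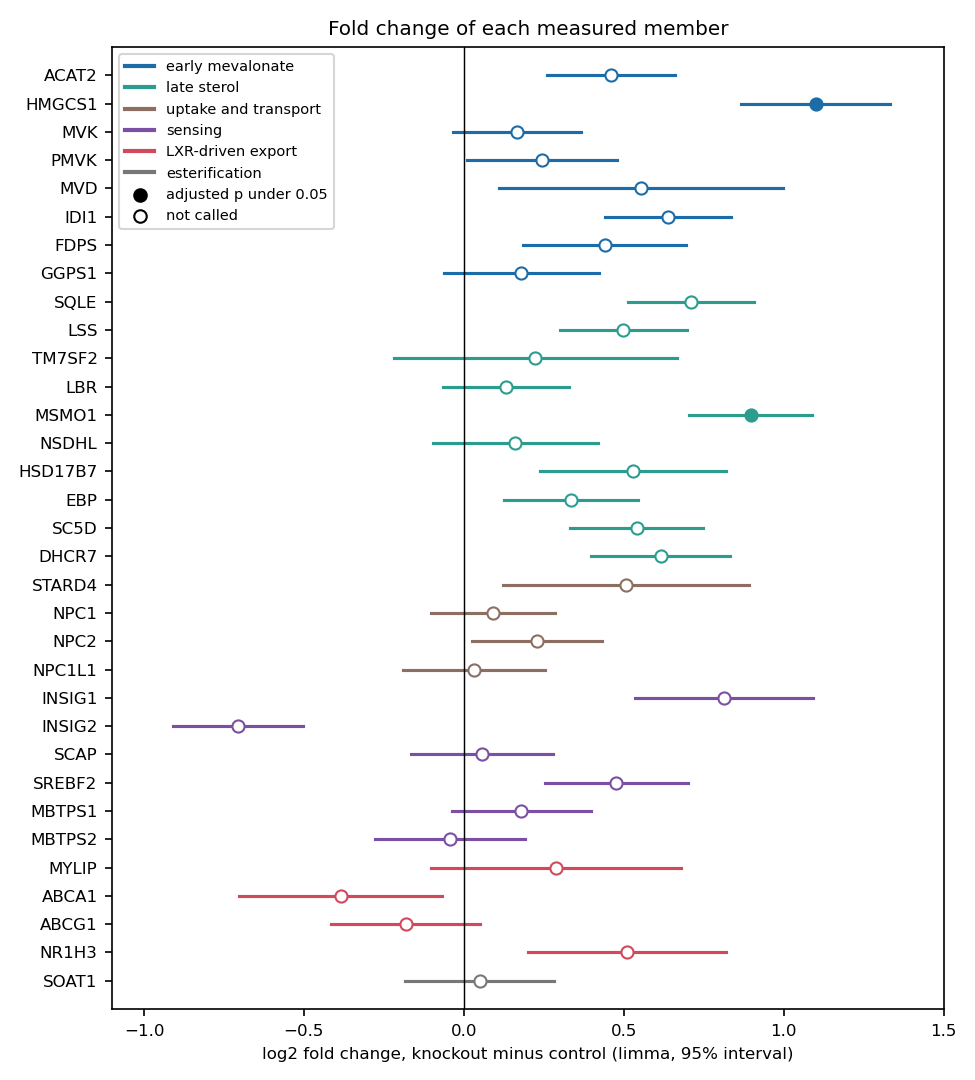
Log2 fold change of each measured member, knockout minus control, with limma's 95% interval, coloured by step; filled points passed at an adjusted p under 0.05. HMGCS1 (1.10) and MSMO1 (0.90) are filled, INSIG1 (0.81) and INSIG2 (-0.71) lie on opposite sides of 0, and the 4 export genes are spread from -0.39 to 0.51.

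The medians were 0.45 for the 8 early genes and 0.51 for the 10 late genes, and 0.36 and 0.30 when a gene's probe sets were averaged. Relative to the control mean of each gene, the early genes averaged 0.06 and -0.06 on control replicates 1 and 2 and 0.49 and 0.46 on the knockout arrays. The late genes averaged 0.03 and -0.03 on control and 0.44 and 0.48 on knockout arrays. Over all 18 genes the median difference was 0.39 over control replicate 1 and 0.51 over control replicate 2. In 13 of the 18 the difference was smaller over control replicate 1. Control replicate 2 read lower than replicate 1 in 21 of the 33 members and 7771 of the 12759 genes above the median level.

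The number of called members depended on the normalization, the probe sets used and the variance model, and the number of all called genes changed too. In the main fit 94 of all 19775 genes were called. The 2 member calls became 5 higher and 1 lower after quantile normalization and after cyclic loess (195 and 231 of all genes). They became 8 and 1 among the 12759 genes above the median level, of which 309 were called. When a gene's probe sets were averaged they were 4 and 1 (138 of all genes). When limma's prior followed the level they were 14 and 1 (797 of all genes). Runs that left out 1 array had a group of 1 array, so only their effect sizes are used. The calls rest on all 4 arrays. All 18 synthesis genes were positive under each of these settings.

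Of the 4 genes of uptake and transport 0 passed (limma; 2 had an unadjusted p under 0.05), and their median difference was 0.16. STARD4, a sterol carrier of the cytosol that is itself regulated by SREBP2, read 7.85 and 7.48 on control and 8.19 and 8.15 on knockout arrays. Its log2 fold change was 0.51 (95% interval 0.12 to 0.89), and over each control array alone 0.32 and 0.69. NPC2, the lysosomal protein that binds cholesterol freed from lipoproteins, read 10.68 and 10.75 against 10.92 and 10.96, at 0.23 (0.03 to 0.43). NPC1, the membrane protein that takes it over from NPC2, gave 0.09 (-0.10 to 0.28) on its brightest probe set. A dimmer NPC1 probe set above the median level gave 0.32 with groups apart by 0.0075, and those below that level gave -0.05 and -0.02. NPC1L1, the intestinal cholesterol importer, read 5.05 and 5.07 on control and 5.03 and 5.15 on knockout arrays, with overlapping groups and a difference of 0.03 (-0.19 to 0.25). Its other probe sets, below the median level, gave -0.12 and 0.19 with overlapping groups.

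Among the sensing genes INSIG1 and INSIG2 lay on opposite sides of 0, and neither passed over all genes. INSIG1, the SCAP anchor that SREBP2 itself induces, read 7.84 and 7.61 on control and 8.55 and 8.52 on knockout arrays. The groups were apart by 0.69, and the log2 fold change was 0.81 (SE 0.104, adjusted p = 0.0831). Its other 2 probe sets gave 0.85 and 0.71, both without overlap.

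INSIG2, the paralogous SCAP anchor, read 9.16 and 9.18 on control and 8.51 and 8.43 on knockout arrays. Its log2 fold change was -0.71 (SE 0.077, adjusted p = 0.0638), or 1.63-fold lower, and 103 of all genes tested had a lower one. It was the lowest member and has 1 probe set. INSIG2 passed in 5 of the 6 alternatives that keep all 4 arrays without a replicate term, with values from -0.73 to -0.71, and INSIG1 in 4 of these 6. The exception for INSIG2 was the robust prior (adjusted p = 0.0735).

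INSIG2 lies on chromosome 2, and most genes around it also had negative differences, few of which passed. Of the 10 genes above the median level on each side of INSIG2, 20 of 20 were negative, with a median of -0.45. Of the 40 on each side, 76 of 80 were negative, with a median of -0.39 and a range from -1.26 to 0.56, and 8 of the 80 had a lower value than INSIG2. Of the 80 genes 2 were called, both lower, where 0.116% of all genes were called lower. Of all 12759 genes above the median level 5900 were negative. The same median over neighbours was between -0.08 and 0.09 for each of the other 32 measured members, 0 of which lie on chromosome 2. The part of the neighbourhood in the INSIG2 difference was not tested.

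**Figure D3:**
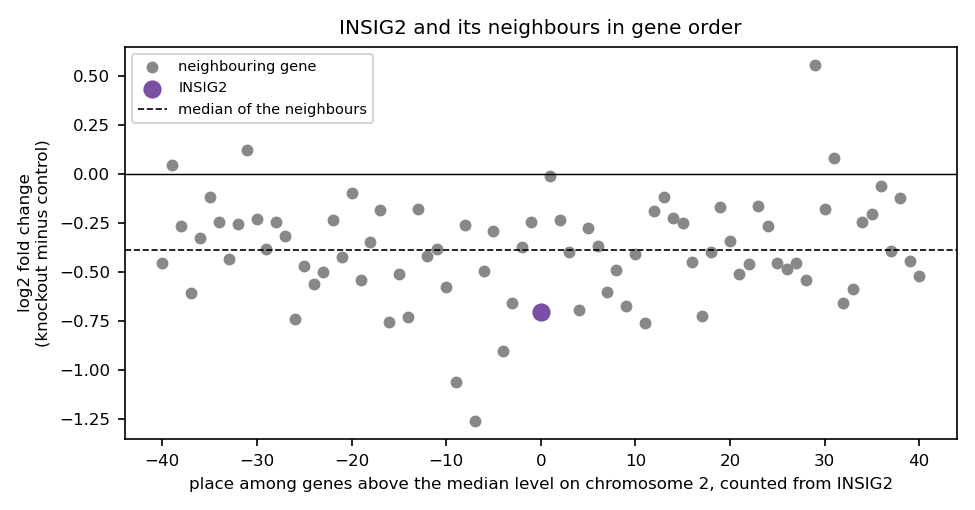
Log2 fold change of INSIG2 and of the 40 genes above the median level on each side of it on chromosome 2, in gene order; the dashed line is the neighbours' median of -0.39. Nearly all neighbours lie below 0 (76 of 80), and INSIG2 at -0.71 lies in the lower part of their range.

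SREBF2, which encodes SREBP2, read 6.83 and 6.84 on control and 7.37 and 7.24 on knockout arrays. Its log2 fold change was 0.48 (SE 0.084, adjusted p = 0.145) without overlap, and its other probe sets gave 0.52 and -0.19. The gene's mean over probe sets was 0.27. The SREBP2 machinery differed less: SCAP gave 0.06 (95% interval -0.16 to 0.28), MBTPS1, the site-1 protease, 0.18 (-0.04 to 0.40), and MBTPS2, the site-2 protease, -0.04 (-0.28 to 0.19). SCAP and MBTPS2 had overlapping groups, and MBTPS1 was apart by 0.11.

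The export genes lay on both sides of 0, and 0 of 4 passed (limma), where 0.359% of all genes were called higher and 0.116% lower. At these shares few calls among 4 genes could be looked for. NR1H3 was higher and ABCA1 lower at an unadjusted p under 0.05, against 6.12% and 5.83% of all genes. ABCA1, the pump that loads cholesterol onto lipid-poor apolipoprotein A-I, read 6.35 and 6.10 on control and 5.91 and 5.77 on knockout arrays. The groups were apart by 0.19, with a log2 fold change of -0.39 (95% interval -0.70 to -0.07, adjusted p = 0.334). Its other probe set above the median level gave -0.34 with overlapping groups, and the 2 below that level gave -0.06 and 0.04. With the mean of all 4 probe sets it was -0.19.

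ABCG1, the transporter that passes cholesterol to mature HDL, read 3.86 and 4.0 on control and 3.72 and 3.77 on knockout arrays. All 4 of its probe sets lay below the median level, so its difference of -0.18 (95% interval -0.42 to 0.05) may be compressed, and whether it was above background is not known. NR1H3, which encodes the receptor LXR alpha, was on the other side: it read 5.93 and 5.67 on control and 6.34 and 6.28 on knockout arrays, at 0.51 (0.20 to 0.82, adjusted p = 0.219). MYLIP, an LXR-induced ubiquitin ligase that removes lipoprotein receptors, read 7.13 and 6.74 against 7.24 and 7.21, at 0.29 (-0.10 to 0.68), and its 5 other probe sets gave -0.03 to 0.21. The mean over probe sets was 0.12 for MYLIP and -0.01 for ABCG1.

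SOAT1, which esterifies cholesterol for storage, read 8.81 and 8.94 on control and 8.96 and 8.89 on knockout arrays. Its difference of 0.05 (95% interval -0.18 to 0.28) lay within the spread of the control arrays, and its other 2 probe sets gave 0.06 and 0.01.

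Set against the synthesis genes, the export genes did not form a group on the opposite side of 0. The median was 0.48 over 18 synthesis genes and 0.05 over 4 export genes, a difference of 0.43. The 2 negative export genes were the transporters ABCA1 and ABCG1, and the 2 positive ones were the receptor gene NR1H3 and the ligase MYLIP. The export median was 0.29 among genes above the median level and -0.0069 without control replicate 2. Relative to control, the export genes averaged 0.09 and -0.09 on control replicates 1 and 2 and 0.08 and 0.03 on the knockout arrays, so the groups overlapped. The synthesis average minus the export average was -0.05 and 0.05 on the control arrays and 0.38 and 0.44 on the knockout arrays. The difference of the medians was 0.19 among genes above the median level, which leaves out ABCG1, and 0.25 when a gene's probe sets were averaged, and no p is given because the genes were chosen with results known.

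**Figure D4:**
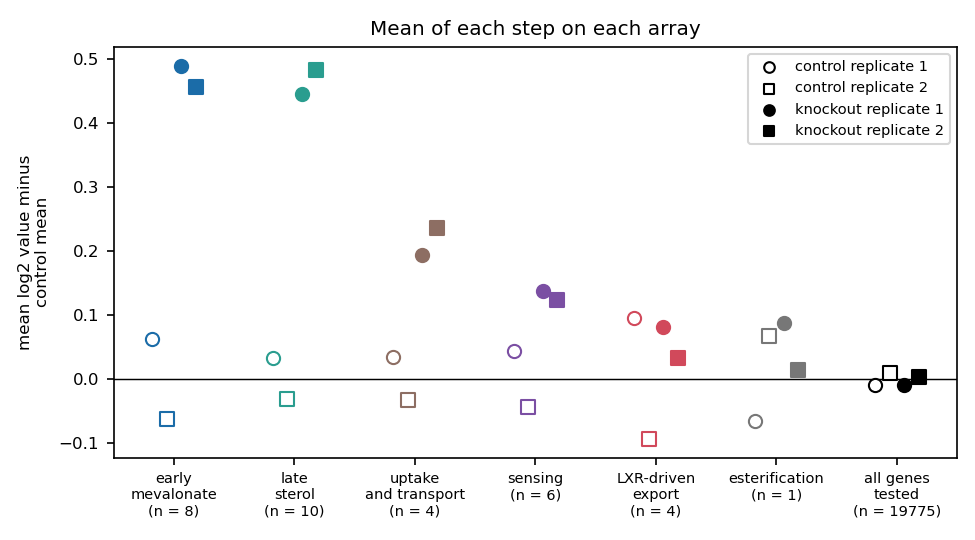
Mean over the genes of each step of the log2 value minus the gene's control mean, on each array, beside the mean over all 19775 genes; open symbols are control and filled symbols knockout arrays. The early (0.49 and 0.46) and late (0.44 and 0.48) steps stand clear of their control arrays, and the export genes (0.08 and 0.03) do not.

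The values above are those of 1 probe set a gene, the one with the highest mean. Of the 77 probe sets 59 were positive, with a median of 0.18. When each probe set was tested, 0 of the 77 passed in either direction (limma), where 0.117% and 0.0311% of all 54613 probe sets were called higher and lower. Without adjustment, 29 were higher and 2 lower at p under 0.05, against 4.65% and 4% of all probe sets. The knockout arrays were both above the control arrays in 44 and below them in 6 of the 77, against 19.7% and 18.9% of all probe sets. Of the 20 members with several probe sets, 9 were positive on each of them and 11 had probe sets of both signs. Among the 37 synthesis probe sets the 5 negative ones had mean levels from 4.10 to 6.60 and values from -0.19 to -0.07, and belonged to MVK, IDI1, LSS and EBP. Probe sets of one gene share the RNA and the array, so they are not replicates of the condition.

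**Figure D5:**
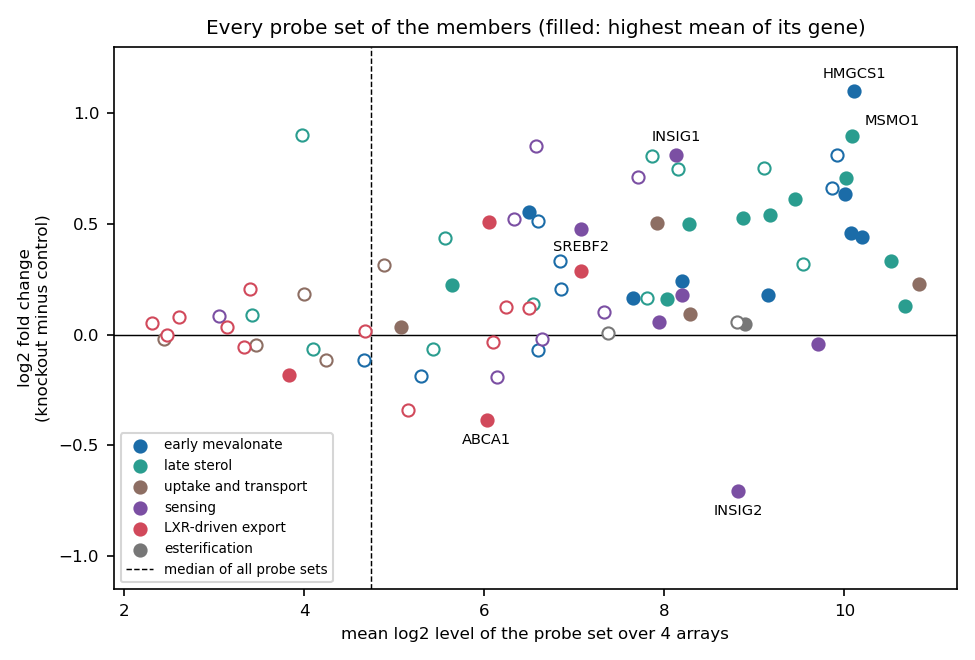
Log2 fold change against mean log2 level for each of the 77 member probe sets, coloured by step; filled points are the probe set with the highest mean of its gene, and the dashed line is the median of all probe sets. The 5 negative synthesis probe sets have mean levels from 4.10 to 6.60, and the ABCG1 probe sets lie left of the line.

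Other genes of sterol metabolism were read from 5 further lists of 55 genes, of which 51 were measured. One of these passed, SCD, the stearoyl-CoA desaturase that SREBP factors also control, with a log2 fold change of 1.13 (adjusted p = 0.0267), where 0.359% of all genes were called higher. None of the 51 passed when a gene's probe sets were averaged, where 138 of all 19775 genes were called. Among the 9 measured SREBP targets of fatty acid synthesis 8 were positive, with a median of 0.25, and the genes next to SCD by p were ACSS2, an acetyl-CoA synthetase, and FASN, the fatty acid synthase. Their log2 fold changes were 0.34 and 0.43 (adjusted p = 0.248 and 0.252). The lipoprotein receptors and sterol carriers had a median of 0.01 over 14 genes. SCARB1, the HDL receptor, stood out among them at 0.62 (7.59 and 7.51 on control, 8.21 and 8.12 on knockout arrays, adjusted p = 0.0897), followed by TMEM97, an SREBP2-regulated sterol-binding membrane protein, at 0.28 and GRAMD1A, a carrier between the plasma membrane and the endoplasmic reticulum, at 0.30.

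The isoprenoid branches of the pathway, which lead away from sterol, had a median near 0. The 12 measured genes of prenylation, dolichol and ubiquinone synthesis had a median of -0.0014 with 6 positive, and the 3 with the smallest p, RABGGTA, PGGT1B and NUS1, had differences of 0.14, 0.27 and 0.10 on the log2 scale, with adjusted p from 0.560 to 0.654. The 5 measured genes of the sterol-regulated degradation of pathway enzymes lay between 0.02 and 0.10, with UBE2G2 at 0.10, ERLIN2 at 0.04 and RNF139 at 0.04. The 11 measured LXR targets and oxysterol enzymes had a median of -0.15 with 9 negative, but 8 of them lay at or below the median level, where the median over all 7016 genes was -0.06. SMPDL3A, named after its value was seen, and CH25H were the 2 positive ones. CH25H, the cholesterol 25-hydroxylase that makes an LXR-activating oxysterol, had the smallest p of the list and lay below the median level, with 3.02 and 3.07 on control and 3.68 and 4.39 on knockout arrays, at 0.99 (95% interval 0.33 to 1.65, adjusted p = 0.255). CYP46A1, a 24-hydroxylase of cholesterol, and ABCG8, a sterol transporter, gave -0.33 and -0.19.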

How the data were processed

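The authors deposited log2 expression per probe set, by RMA with affy, per the submitters' processing notes (version and options not given in the sources used here). RMA summarises probes after scaling arrays to each other, which can hide a global shift and compresses differences of dim probe sets; the deposited arrays did not share one identical distribution. The number of arrays (2 a group) limits the precision.

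Of 54613 probe sets, 41091 carried 1 gene symbol, 1801 several and 11721 none. Each of 19775 genes was represented by its probe set with the highest mean. limma 3.58.1 (R 4.3.3; lmFit and eBayes, two-sided) tested knockout against control with group as the only term and Benjamini-Hochberg adjustment over all genes, and again over all probe sets; a feature was called at an adjusted p under 0.05. The smallest exact permutation p for 2 against 2 arrays is 0.333, so calls rest on limma's pooled spread (prior degrees of freedom 2.48). SE and 95% intervals are limma's. The limma fit, not the pathway steps, was run on simulated arrays with planted changes larger than most member differences.

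Members and lists were chosen with earlier results of these data known. Named were all measured members, PRMT6 and, of each further list, the 3 genes with the smallest p. Symbols of the 33 members were the same in RefSeq (GRCh38.p14), which gave gene order and promoters. Alternatives were quantile and cyclic loess normalization, a level filter, the mean over probe sets, a trended or robust prior, leaving out each array, and a replicate block. Some genes are not reported here.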

Additional observations from a re-analysis of the deposited data

How the results depend on the processing

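With 2 arrays a group and no measured background, dim probe sets and small differences are the limit. The count of members called higher, 2 in the main fit, became 5 after quantile and after cyclic loess normalization. Of all genes 94 were called in the main fit, and 195 and 231 in these. The member count became 8 among features above the median level (309 genes called) and 4 with a gene's probe sets averaged (138). With a trended prior it became 14 (797 genes called), and the robust prior left it at 2 (70). Runs with 1 array left out had a group of 1 array, so calls in them are not counted. Members called lower (0) became 1 under quantile, cyclic loess, the level filter, the probe set mean and the trended prior. Called member probe sets (0 and 0) became 5 higher above the median level, and 18 higher and 1 lower with the trended prior. The totals over all probe sets in these settings are not given here. Called genes of the further lists (1) became 2 with the level filter, 3 with the trended prior and 0 with the probe set mean. The cause of these changes was not tested.

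The labels number the arrays of both groups, but nothing in them pairs the numbers. Deviations of same-numbered arrays from their group means correlated at r = -0.07 across all genes and 0.11 across the 33 members; genes are not independent replicates. In a paired fit with the number as a replicate block, 0 of all 19775 genes were called, the members and further lists included.

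The medians of the early and late steps were 0.36 and 0.30 with the mean of all probe sets, and 0.34 to 0.50 and 0.44 to 0.52 with each array left out. The export median was 0.29 with the level filter and -0.0069 to 0.11 with each array left out, where it was negative without control replicate 2. The sensing median was 0.057 to 0.18 and the single value of esterification -0.016 to 0.12 with each array left out. Synthesis minus export was 0.19 with the level filter and 0.25 with the mean of all probe sets. The sign of near-zero values turned in 4 members: MBTPS2 (0.0078 with the mean of all probe sets, and -0.107 to 0.018 with each array left out, where it was 1.9e-05 without control replicate 1), SOAT1 (-0.016 without control replicate 1), SCAP (-0.0065 without control replicate 2) and NPC1L1 (-0.031 to 0.097 with each array left out). The other 29 members kept their sign under each alternative run, which for ABCG1 leaves out the level filter.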
